A study of Mus musculus with 7 samples.

Results

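NMDA and kainate receptors are glutamate-gated ion channels, and their subunits are encoded by the Grin and Grik genes of the mouse. The genes examined here were the NMDA receptor subunit genes Grin1, Grin2a, Grin2b, Grin2d and Grin3a and the kainate receptor subunit genes Grik1, Grik2, Grik3, Grik4 and Grik5, chosen by name. All 10 were found among the 26286 genes of the deposited count table by their Entrez identifiers. The table holds polyA RNA-seq counts from cortical neurons of C57BL/6 mouse embryos, all labelled male and E16.5, from 3 wild type and 4 KAT7 mutant mice. KAT7 is a histone acetyltransferase. The sources used here do not give the allele behind the mutant label or the way the neurons were prepared. Values per library are listed throughout in the order of the replicate numbers.

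An NMDA receptor is built from obligatory GluN1 subunits (Grin1), which bind the co-agonists glycine and D-serine, together with GluN2 subunits (Grin2a to Grin2d), which bind glutamate, or GluN3 subunits (Grin3a, Grin3b), which bind glycine and lower the calcium flow. GluN2B is the main GluN2 subunit of the embryonic cortex, and GluN2A takes a larger part after birth. Kainate receptors are tetramers in which GluK1 to GluK3 (Grik1 to Grik3) can form channels alone, whereas the high-affinity subunits GluK4 and GluK5 (Grik4, Grik5) reach the surface only together with them. Neto1 and Neto2 encode auxiliary subunits that set the kinetics of kainate receptors.

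The promoter sequences below are shown because Grik3 was the one subunit gene that rose in the mutant, and Grik2, Grik5 and Grin1 were abundant subunit genes that were not called. Each is the 250 bases upstream of the RefSeq transcript start on the gene's own strand in assembly GRCm38.p6, with capitals marking GGGCGG, the core of the GC box bound by Sp factors, or its reverse complement CCGCCC. The windows lie at chr4:125490446-125490695 (plus strand) for Grik3, chr10:49788755-49789004 (minus strand) for Grik2, chr7:25072370-25072619 (minus strand) for Grik5 and chr2:25319188-25319437 (minus strand) for Grin1.
Grik3: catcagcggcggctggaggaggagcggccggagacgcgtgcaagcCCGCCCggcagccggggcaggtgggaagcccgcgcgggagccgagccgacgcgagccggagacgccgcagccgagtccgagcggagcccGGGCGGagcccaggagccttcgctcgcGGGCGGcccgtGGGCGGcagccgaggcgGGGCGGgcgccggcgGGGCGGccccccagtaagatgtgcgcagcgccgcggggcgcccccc
Grik2: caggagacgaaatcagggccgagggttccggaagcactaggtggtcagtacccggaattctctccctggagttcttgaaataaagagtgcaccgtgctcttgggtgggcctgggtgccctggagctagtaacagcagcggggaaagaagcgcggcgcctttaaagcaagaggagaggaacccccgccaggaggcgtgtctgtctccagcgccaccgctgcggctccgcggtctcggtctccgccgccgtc
Grik5: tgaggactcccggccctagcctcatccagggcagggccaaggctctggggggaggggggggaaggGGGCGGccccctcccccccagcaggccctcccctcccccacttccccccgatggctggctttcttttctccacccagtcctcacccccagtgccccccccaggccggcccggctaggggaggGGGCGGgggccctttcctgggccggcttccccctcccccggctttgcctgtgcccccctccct
Grin1: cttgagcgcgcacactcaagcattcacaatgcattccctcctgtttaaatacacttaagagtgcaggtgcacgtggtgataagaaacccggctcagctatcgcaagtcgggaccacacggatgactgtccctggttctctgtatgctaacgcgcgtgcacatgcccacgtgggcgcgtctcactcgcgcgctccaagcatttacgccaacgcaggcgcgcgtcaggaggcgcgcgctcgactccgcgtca

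The Grik3 window held 6 such motifs and had a GC content of 82.0%, above that of 99.3% of the 32851 windows of the same length in the RefSeq table. The Grik5 window held 2 motifs at a GC content of 75.2%, and the windows of Grik2 (62.8% GC) and Grin1 (58.8% GC) held 0. Of all windows, 32.7% held at least 1. RefSeq windows were matched for 6 of the 10 genes, which also include Grik4 with 1 motif and Grin2d with 0. A match of letters is a description of the window and was not tested as a binding site.

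On the second principal component (9.80% of the variance) KAT7 mutant replicate 1 stood apart at 23.1, with the other 6 libraries at -9.75 to 1.65. Libraries held 8272487 to 8813060 counts, and 13681 genes passed the filter on low counts and were tested. Kat7 fell from 848 to 869 counts in wild type to 3 to 10 counts in the mutant libraries, which matched the labels. Levels are given as CPM, the counts of a gene scaled to a common library size. Neuronal markers were abundant in every library: the 10 pan-neuronal genes summed to 10349 to 10964 CPM in wild type and 9177 to 9962 CPM in KAT7 mutant, and the 9 markers of cortical excitatory neurons to 4235 to 4644 and 4559 to 4727 CPM. Of the 10 pan-neuronal genes 3 were called higher and 3 lower. The largest change among them was that of Stmn2, which averaged 1334 CPM in wild type and 328 CPM in KAT7 mutant. Markers of other cells were present at lower levels, and the astrocyte gene Gjb6 was listed at 0 in all 7 libraries. Summed levels of 10 radial glia markers were 270 to 290 CPM in wild type and 192 to 231 CPM in KAT7 mutant, of 7 oligodendrocyte lineage markers 29.6 to 35.4 and 35.6 to 54.2 CPM, and of 7 microglia markers 13.7 to 17.4 and 22.8 to 30.7 CPM. Among the tested members 6 of 9 radial glia genes were called lower, 4 of 7 oligodendrocyte lineage genes higher and 3 of 5 microglia genes higher, and their other members were not called. Of all tested genes 13.1% were called higher and 15.8% lower. In these bulk libraries fewer cells of a type and less RNA per cell cannot be told apart, and the part of these other cells in the receptor results was not tested.

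KAT7 mutant neurons had more Grik3 mRNA and less Grik1 and Grin2b mRNA than wild type. Grin3a was also called lower, at 8 to 29 counts per library, but its call was lost by DESeq2 and in some fits with 1 library left out. Grik3 rose 1.58-fold, Grik1 fell 2.71-fold, Grin3a 1.89-fold and Grin2b 1.31-fold, while Grin1, Grin2d, Grik2, Grik4 and Grik5 were not called. Genotypes were compared with the quasi-likelihood test of edgeR, and a gene was called at a Benjamini-Hochberg adjusted p under 0.05 over all tested genes. Of the 9 subunit genes that passed the filter, 1 was called higher and 3 lower (44.4%), against 28.9% of all tested genes called in either direction, 13.1% higher and 15.8% lower. In 3 of the 9 (33.3%) the libraries of the genotypes did not overlap, against 35.3% of all tested genes. Without KAT7 mutant replicate 1, which stood apart, 2 were called higher and 3 lower. Over all 13580 genes tested in that fit, 1776 were called higher and 2212 lower. The median log2 fold change of the 9 genes was -0.02 and that of all tested genes 0.00.

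**Figure D1:**
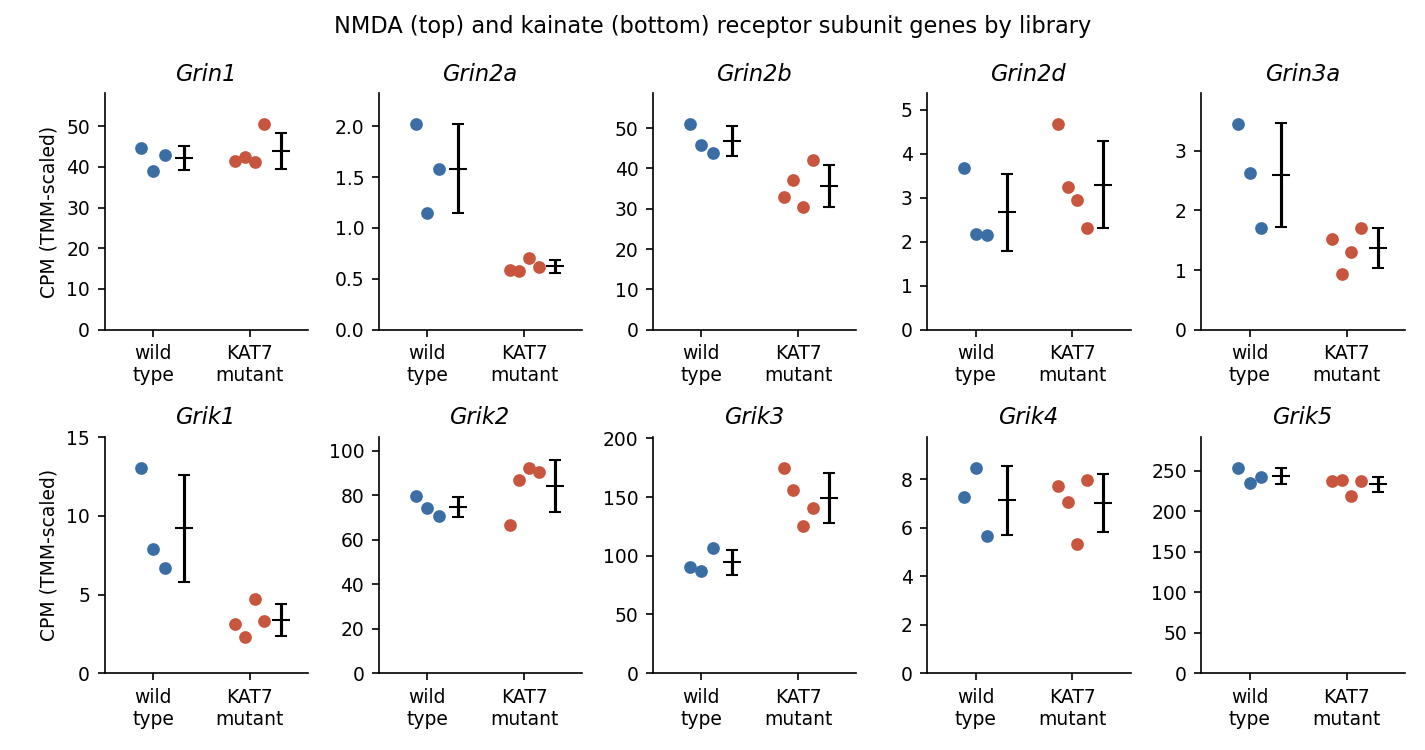
Level of each NMDA (top) and kainate (bottom) receptor subunit gene in CPM scaled by TMM factors, 1 point per library (3 wild type in blue, 4 KAT7 mutant in red), with the mean and SD beside them; each axis starts at 0 and has its own scale. Grik3 points are all higher in KAT7 mutant (126 to 175 CPM) than in wild type (86.8 to 107 CPM), and Grik1, Grin2b and Grin2a points are all lower.

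Grik3 (Entrez 14807) encodes GluK3, a kainate receptor subunit of low glutamate affinity. Its level was 90.1, 86.8 and 107 CPM in the 3 wild type libraries and 175, 156, 126 and 141 CPM in the 4 mutant libraries. The genotypes did not overlap, and mutant replicate 1 was the highest. Mean levels were 94.6 ± 10.7 CPM over wild type mice (SD, n = 3) and 149 ± 21.1 CPM over mutant mice (SD, n = 4). The log2 fold change was 0.66 ± 0.09 (SE; edgeR adjusted p = 1.22e-05). Without mutant replicate 1 the log2 fold change was 0.57.

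Grik1 (Entrez 14805) encodes GluK1, which is enriched in interneurons of the cortex and hippocampus. It had 110, 69 and 59 counts in the 3 wild type libraries and 27, 20, 40 and 27 counts in the 4 mutant libraries, or 13.1, 7.90 and 6.67 CPM against 3.15, 2.32, 4.73 and 3.30 CPM. The genotypes did not overlap, and wild type replicate 1 stood above the other wild type libraries. Mean levels were 9.21 ± 3.39 CPM over wild type mice (SD, n = 3) and 3.37 ± 0.999 CPM over mutant mice (SD, n = 4). The log2 fold change was -1.44 ± 0.24 (SE; edgeR adjusted p = 0.000106), and -1.11 without wild type replicate 1.

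Of the 12 interneuron markers, 6 were called higher in KAT7 mutant and 1 lower, against 13.1% and 15.8% of all tested genes. Their summed level was 507, 368 and 327 CPM in the 3 wild type libraries and 559, 411, 494 and 421 CPM in the 4 mutant libraries. Wild type replicate 1 was the highest wild type library for this sum and for Grik1. The part of interneuron content in the Grik1 level of single libraries was not tested.

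Grik2 (Entrez 14806) encodes GluK2, the most widely expressed low-affinity kainate subunit of the forebrain. It had 79.6, 74.4 and 70.6 CPM in the 3 wild type libraries and 66.7, 86.8, 92.4 and 90.6 CPM in the 4 mutant libraries. Mutant replicate 1 lay below every wild type library and the other mutant libraries above them. The log2 fold change was 0.17 (95% interval -0.01 to 0.35) with an edgeR adjusted p of 0.156. Without mutant replicate 1 it was 0.26 and was called (edgeR adjusted p = 0.00278, in a range of 0.00278 to 0.387 over the alternatives). That library was the lowest mutant library for Grik2 and the highest for Grik3, and it also had the highest summed level of 8 immediate early genes, 392 CPM against 201 to 228 CPM in the other mutant libraries and 179 to 202 CPM in wild type. Its sum of the 12 interneuron markers, 559 CPM, was also above the 411 to 494 CPM of the other mutant libraries. For 8 striatal neuron markers it had 75.0 CPM, against 62.6 to 73.7 CPM in those libraries. Wild type libraries had 327 to 507 CPM and 65.7 to 81.5 CPM for these sums. The part of immediate early gene level, or of interneuron or striatal content, in the receptor levels was not tested.

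The high-affinity subunit genes were not called. Grik5 (Entrez 14809), which encodes GluK5, averaged 243 ± 9.56 CPM over wild type mice (SD, n = 3) and 233 ± 9.40 CPM over mutant mice (SD, n = 4), with a log2 fold change of -0.06 (95% interval -0.17 to 0.04) and an edgeR adjusted p of 0.39. Grik4 (Entrez 110637), which encodes GluK4, had 5.66 to 8.47 CPM in wild type and 5.32 to 7.95 CPM in KAT7 mutant, with a log2 fold change of -0.02 (95% interval -0.38 to 0.34) and an edgeR adjusted p of 0.94. The interval for Grik5 is narrow and that for Grik4, with 45 to 74 counts per library, is wider.

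Grin2b (Entrez 14812) encodes GluN2B, the main glutamate-binding NMDA receptor subunit at this age. Its level was 50.9, 45.9 and 43.8 CPM in the 3 wild type libraries and 32.9, 37.1, 30.5 and 42.2 CPM in the 4 mutant libraries. The genotypes did not overlap, though mutant replicate 4 came close to wild type replicate 3. Mean levels were 46.9 ± 3.68 CPM over wild type mice (SD, n = 3) and 35.7 ± 5.12 CPM over mutant mice (SD, n = 4). The log2 fold change was -0.39 ± 0.09 (SE; edgeR adjusted p = 0.00309).

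Grin1 (Entrez 14810), the obligatory subunit, was not called. It had 44.8, 38.9 and 42.9 CPM in the 3 wild type libraries and 41.5, 42.5, 41.3 and 50.5 CPM in the 4 mutant libraries. Its log2 fold change was 0.06 (95% interval -0.11 to 0.23) with an edgeR adjusted p of 0.632. An antisense gene, Grin1os, overlaps Grin1 in the RefSeq annotation, and since the strand setting of the counting is not given here, reads of that gene cannot be separated from those of Grin1.

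The other NMDA receptor genes were of low abundance. Grin3a (Entrez 242443), which encodes the glycine-binding GluN3A of immature synapses, had 29, 23 and 15 counts in the 3 wild type libraries and 13, 8, 11 and 14 counts in the 4 mutant libraries. On the CPM scale the ranges overlapped at their ends, at 1.70 to 3.44 against 0.928 to 1.71. The log2 fold change was -0.92 ± 0.30 (SE; edgeR adjusted p = 0.0272). The call was lost by DESeq2 (adjusted p = 0.093) and without wild type replicate 1 (edgeR adjusted p = 0.168), wild type replicate 2 (0.0765), mutant replicate 2 (0.0818) or mutant replicate 3 (0.0501), in a range of 0.00988 to 0.168 over the alternatives.

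Grin2d (Entrez 14814), which encodes GluN2D, an early subunit also found in interneurons, had 31, 19 and 19 counts in wild type and 40, 28, 25 and 19 counts in KAT7 mutant. Its log2 fold change was 0.31 (95% interval -0.25 to 0.87) and the edgeR adjusted p 0.415, and the interval includes both no change and a rise.

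Grin2a (Entrez 14811), which encodes GluN2A, had 17, 10 and 14 counts in wild type and 5, 5, 6 and 5 counts in KAT7 mutant. The genotypes did not overlap, but the gene did not pass the count filter and was not tested with the others. With no count filter edgeR gave a log2 fold change of -1.33 and an adjusted p of 0.00874. With a CPM of at least 1 in 3 libraries as the filter it gave -1.33 and 0.00831. Without wild type replicate 2, where the gene passed, it gave -1.52 and 0.00861. In the latter fits Grin2a passed only through wild type libraries (1.14 to 2.02 CPM, against 0.580 to 0.709 CPM in KAT7 mutant). Their adjusted p-values are therefore no independent support for a fall.

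The remaining Grin genes of the mouse were also in the table. Grin2c, which encodes the GluN2C of the cerebellum and glia, had 10, 11 and 13 counts in wild type and 2, 6, 2 and 6 counts in KAT7 mutant, with a log2 fold change of -1.44 ± 0.43 (SE) and an edgeR adjusted p of 0.0152. This call was lost by DESeq2 (adjusted p = 0.0749) and without wild type replicate 3 (edgeR adjusted p = 0.0596), in a range of 0.00788 to 0.0749. Grin2c passed the count filter only through its wild type libraries (1.19 to 1.47 CPM, against 0.234 to 0.734 CPM in KAT7 mutant). Its adjusted p is therefore no independent support for a fall. Grin3b, which encodes GluN3B, had 27 to 45 counts in wild type and 33 to 48 counts in KAT7 mutant and was not called (log2 fold change 0.26, 95% interval -0.18 to 0.71, edgeR adjusted p = 0.392).

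**Figure D2:**
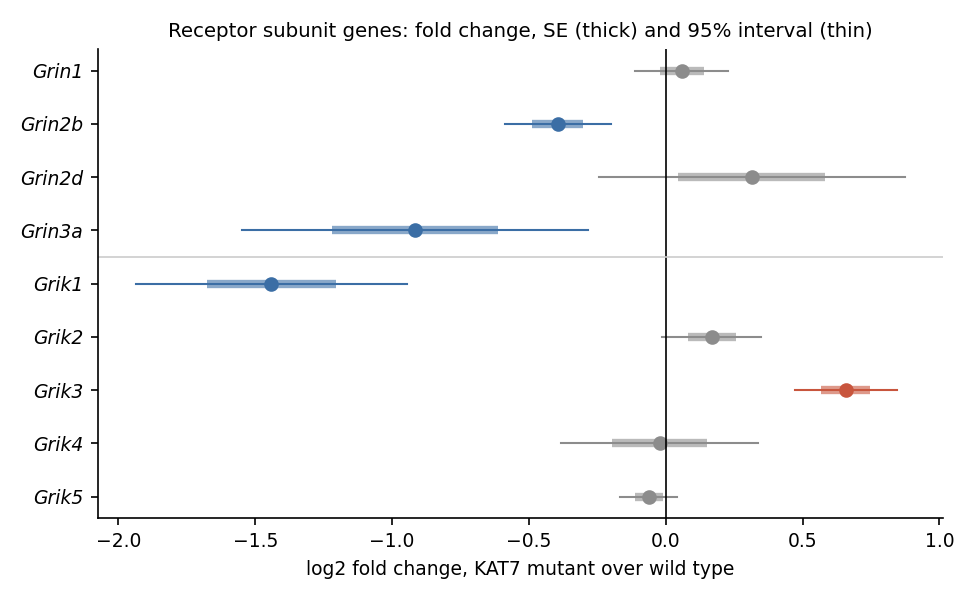
Log2 fold change of KAT7 mutant over wild type from edgeR for the 9 tested subunit genes (points), with the SE (thick bars) and the 95% interval (thin bars); red marks a gene called higher, blue called lower and grey not called. Grik1 has the largest fall (-1.44), Grik3 is the single gene called higher (0.66), and the interval of Grik5 is the narrowest.

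Levels of different genes were compared as RPKM (CPM per kilobase of gene) with the deposited gene length. In wild type Grik5 was the highest at 63.4 ± 2.49 RPKM (SD, n = 3), followed by Grik2 at 15.4 ± 0.924, Grik3 at 10.7 ± 1.21, Grin1 at 9.97 ± 0.707 and Grin2b at 6.24 ± 0.490 RPKM. Next came Grik1 (2.52 RPKM), Grik4 (2.06), Grin3b (1.17), Grin3a (0.774), Grin2d (0.609), Grin2a (0.351) and Grin2c (0.267). Neighbours in this order did not overlap over the 3 libraries, except Grik3 with Grin1, Grik1 with Grik4, Grin3b with Grin3a, Grin3a with Grin2d and Grin2a with Grin2c.

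In KAT7 mutant the first 5 places were the same, but Grik3 (16.9 ± 2.38 RPKM, SD, n = 4) now overlapped Grik2 (17.3 ± 2.43 RPKM) and no longer overlapped Grin1 (10.4 ± 1.04 RPKM). Grin2b stood at 4.75 ± 0.682 RPKM. Grik1, at 0.922 ± 0.273 RPKM, came after Grik4 (2.02 RPKM) and Grin3b (1.41 RPKM), though its range overlapped that of Grin3b.

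The mixture of kainate subunit transcripts is described by shares of summed RPKM, with no test. The sum over Grik1 to Grik5 was 94.0 ± 3.81 RPKM (SD, n = 3) in wild type and 97.8 ± 3.26 RPKM (SD, n = 4) in KAT7 mutant. Grik3 held 10.4%, 10.8% and 13.0% of it in the 3 wild type libraries and 20.1%, 17.6%, 15.3% and 16.0% in the 4 mutant libraries. Grik1 held 1.96% to 3.63% in wild type and 0.632% to 1.39% in KAT7 mutant. Grik5 held 67.2% to 67.7% in wild type and 61.3% to 62.9% in KAT7 mutant, and its own level averaged 63.4 and 60.7 RPKM. The shares of Grik3, Grik1 and Grik5 did not overlap between genotypes. Those of Grik2 (15.6% to 16.8% and 13.9% to 20.4%) and Grik4 (1.76% to 2.69% and 1.65% to 2.31%) did.

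Per length, Grik3 was 2.86, 4.55 and 6.62 times the level of Grik1 in the 3 wild type libraries and 23.0, 27.8, 11.0 and 17.6 times in the 4 mutant libraries. The ratio varied within each genotype, and its ranges did not overlap.

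Among GluN2 subunits the share of Grin2b was similar, at 83.7 ± 2.13% (SD, n = 3) of summed RPKM in wild type and 82.6 ± 3.86% (SD, n = 4) in KAT7 mutant. The GluN2 sum was lower, at 7.46 ± 0.736 RPKM against 5.73 ± 0.627 RPKM. Grin2a held 3.57% to 5.38% of it in wild type and 2.11% to 3.18% in KAT7 mutant, and Grin2d 6.97% to 10.1% and 8.24% to 18.9%. Grin2b relative to Grin1 was 0.641, 0.664 and 0.575 in the 3 wild type libraries and 0.447, 0.491, 0.415 and 0.470 in the 4 mutant libraries, with no overlap.

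**Figure D3:**
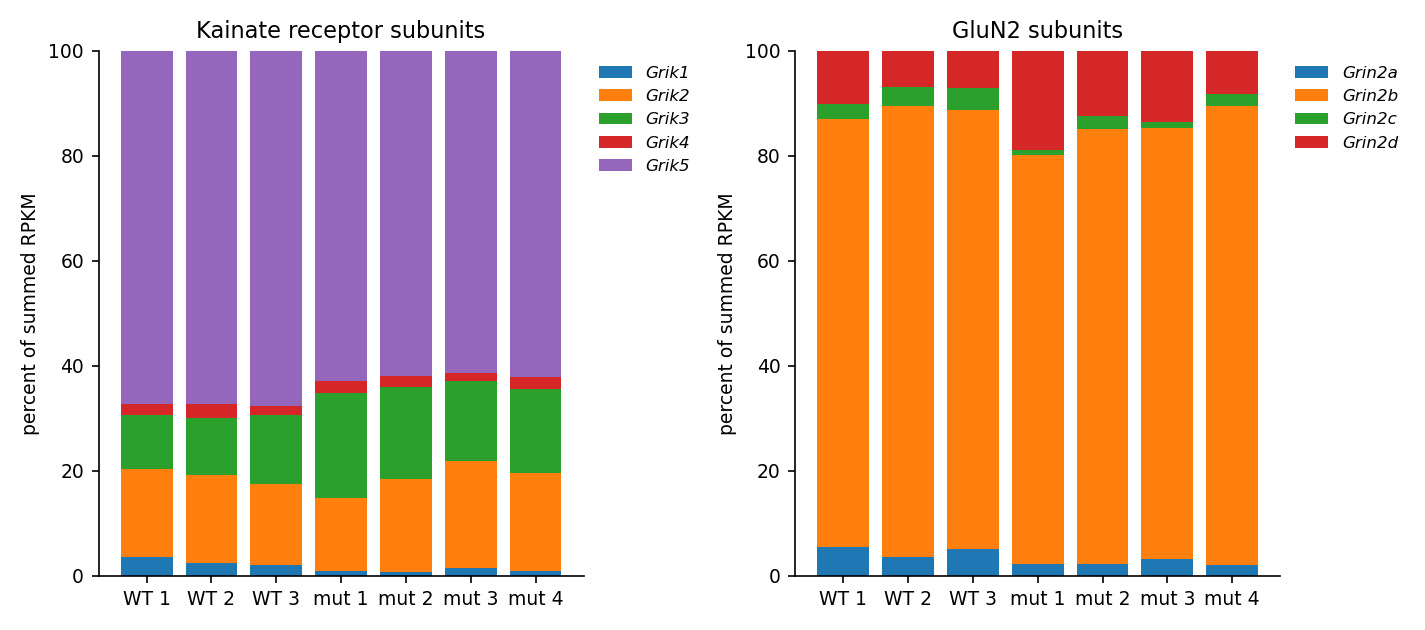
Share of each gene in the summed RPKM of the 5 kainate receptor subunit genes (left) and of the 4 GluN2 subunit genes (right), as percent, 1 stacked bar per library (WT, wild type; mut, KAT7 mutant; numbers are replicates). The Grik3 band is wider in every KAT7 mutant library (15.3% to 20.1%) than in any wild type library (10.4% to 13.0%), and Grin2b fills most of every GluN2 bar.

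The auxiliary subunit genes of kainate receptors were called in opposite directions. Neto1, whose protein also associates with NMDA receptors, had 12.9, 10.2 and 11.3 CPM in the 3 wild type libraries and 4.56, 5.22, 4.37 and 2.93 CPM in the 4 mutant libraries, and the log2 fold change was -1.42 ± 0.17 (SE; edgeR adjusted p = 2.13e-06). Neto2 had 209, 227 and 237 CPM in wild type and 289, 307, 281 and 264 CPM in KAT7 mutant, and the log2 fold change was 0.35 ± 0.06 (SE; edgeR adjusted p = 0.000117). Neither gene overlapped between the genotypes. Per length, Neto2 was the more abundant in every library, and Neto1 made up 6.70% to 9.02% of their summed RPKM in wild type and 1.75% to 2.64% in KAT7 mutant. Of the 5 tested genes of the list of kainate receptor auxiliary and binding proteins, Grip1, a PDZ scaffold, was also called higher (0.32), and 2 were not called, so that 60.0% were called against 28.9% of all tested genes.

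Scaffold and transport genes of NMDA receptors were called lower in 3 of 11 tested members, the other 8 were not called, and the list median was -0.01. Their called share of 27.3% was near the 28.9% of all tested genes. Lin7a, an adaptor in the complex that carries NMDA receptors along dendrites, averaged 39.4 ± 5.15 CPM over wild type mice (SD, n = 3) and 18.9 ± 1.71 CPM over mutant mice (SD, n = 4), and fell by a log2 fold change of -1.06 ± 0.10 (SE; edgeR adjusted p = 1.03e-07). Its paralogues Lin7b (0.07) and Lin7c (-0.02) were not called. Dlg2, which encodes the membrane-associated guanylate kinase PSD-93, fell by 0.54 on the log2 scale, from 356 ± 33.2 to 245 ± 21.6 CPM. Dlg3, which encodes SAP102, a scaffold of immature synapses, fell by 0.19 (edgeR adjusted p = 0.0134). The Dlg3 call was lost without wild type replicate 2 (0.0642) or replicate 3 (0.0821) and with the replicate number as a block (0.0576), in a range of 0.00536 to 0.0821.

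Genes that supply or remove the co-agonists glycine and D-serine were called higher in 3 and lower in 1 of 6 tested members (66.7%), against 28.9% of all tested genes in either direction, at a list median of 0.13. Slc6a9, the glycine transporter GlyT1, which clears glycine around NMDA receptors, had 22.7, 18.3 and 15.7 CPM in the 3 wild type libraries and 46.7, 41.4, 37.6 and 37.9 CPM in the 4 mutant libraries. Every mutant library was above every wild type library, with a log2 fold change of 1.12 ± 0.11 (SE) and an edgeR adjusted p of 2.03e-07. Shmt2, a mitochondrial enzyme that interconverts serine and glycine, rose by 0.65, from 76.1 ± 3.13 to 120 ± 8.76 CPM. Gldc, the decarboxylase of the glycine cleavage system, fell by 0.61, from 13.5 ± 2.34 to 8.87 ± 0.652 CPM. The neutral amino acid transporter gene Slc1a4 rose by 0.19 (edgeR adjusted p = 0.0214). Its call was lost without wild type replicate 1 or 2 or mutant replicate 1 or 2, in a range of 0.0083 to 0.0992. Srr, the enzyme that makes D-serine, was not called (0.08, 95% interval -0.07 to 0.22).

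Kinases and phosphatases that act on NMDA receptors were called in 1 of 12 tested members (8.33%), against 28.9% of all tested genes. This was Prkacb, a catalytic subunit of protein kinase A, which rose by 0.41 (edgeR adjusted p = 0.0116, and 0.0533 without wild type replicate 1, in a range of 0.00425 to 0.0533). The other 11, which include Fyn, Src and Ptpn5, had log2 fold changes of -0.13 to 0.12 and were not called.

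Genes of calcium signalling downstream of the receptor were called higher in 4 and lower in 3 of 10 tested members (70.0%), against 13.1% higher and 15.8% lower, 28.9% in all, over all tested genes. The calmodulin gene Calm3 fell by 0.54 on the log2 scale, from 482 ± 10.2 to 331 ± 16.7 CPM, while Calm2 rose by 0.16. The Ras exchange factor genes also differed in direction. Rasgrf2 fell by 1.34, from 15.7 ± 6.30 to 6.20 ± 0.968 CPM, and Rasgrf1 rose by 0.85, from 3.66 ± 0.196 to 6.58 ± 1.54 CPM. Nos1, the neuronal nitric oxide synthase, rose by 0.52 and Camk2g fell by 0.21. The calls of Calm2 (lost without wild type replicate 1 or 2 or mutant replicate 2 or 3, adjusted p 0.00793 to 0.0776 in edgeR and the other tools) and of Camk2g (lost without wild type replicate 2, 0.00266 to 0.0554) depended on single libraries.

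**Figure D4:**
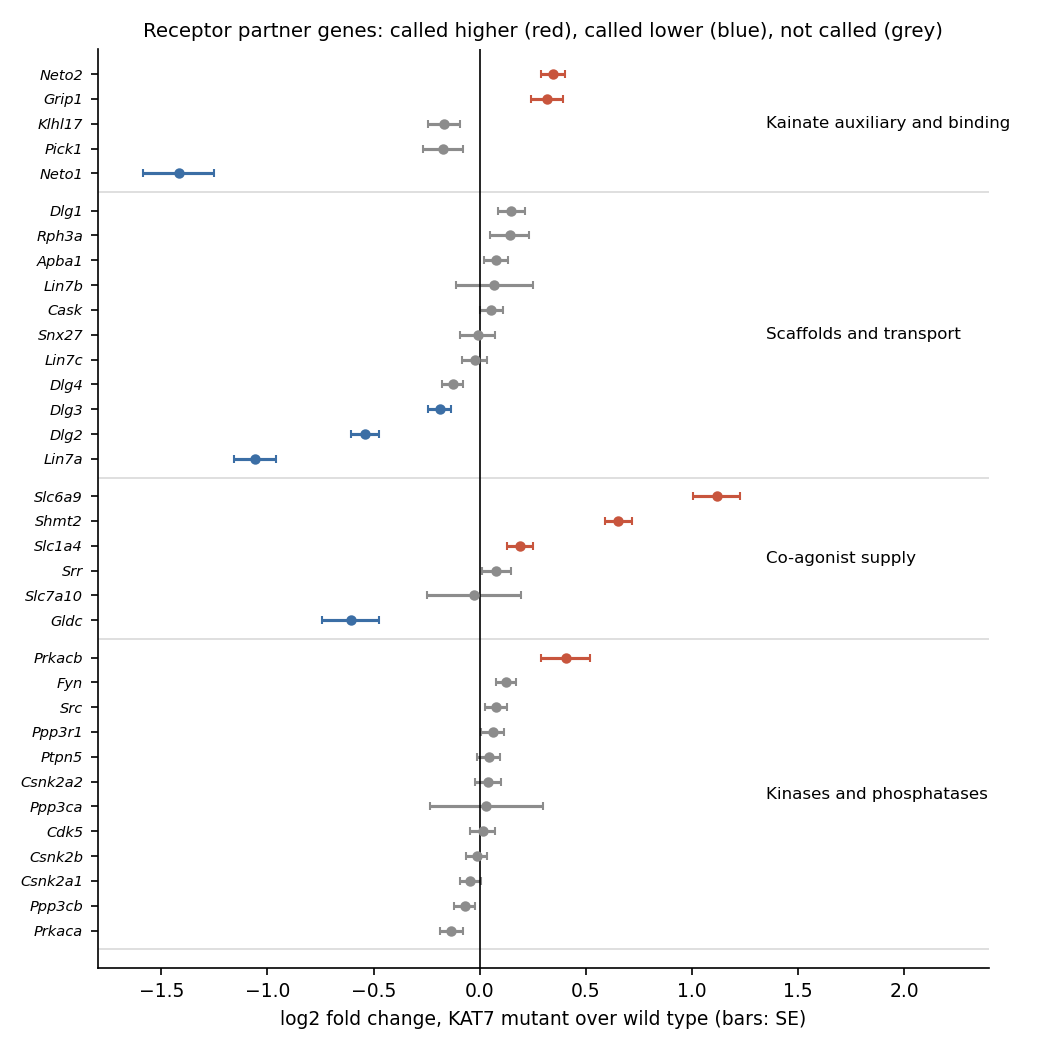
Log2 fold change of KAT7 mutant over wild type for the 34 tested genes of 4 receptor partner lists, those of calcium signalling left out (points, edgeR), with the SE as bars; red marks genes called higher, blue called lower and grey not called. Calls fall in both directions in the auxiliary and co-agonist lists, with Slc6a9 (1.12) the highest point and Neto1 (-1.42) the lowest.

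Over the 5 partner lists 10 of 44 tested genes were called higher and 8 lower (40.9%), against 28.9% of all tested genes, and their median log2 fold change was 0.03. For comparison, the AMPA and delta receptor subunit genes, the other ionotropic glutamate receptors, were called lower in 3 and higher in 1 of 6, against 15.8% and 13.1% of all tested genes. Gria4 averaged 67.0 ± 10.05 CPM over wild type mice (SD, n = 3) and 21.1 ± 3.12 CPM over mutant mice (SD, n = 4), and fell by a log2 fold change of -1.66 ± 0.11 (SE; edgeR adjusted p = 3.79e-10), while Gria2 was not called (0.12, 95% interval -0.06 to 0.30). Gria1 (-1.34) and Gria3 (-1.59) also fell, and Grid1 (0.35, edgeR adjusted p = 0.0327) was called higher. The Grid1 call was lost by DESeq2, with the replicate block, and without wild type replicate 2 or 3 or mutant replicate 2 or 3, in a range of 0.0136 to 0.148. Whether the NMDA and kainate genes differ from these as groups was not tested.

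The genes most like Grik3 and Grik1 over the 7 libraries were found by the root mean square difference of log2(CPM + 0.5), each gene centred on its own mean, among 8755 and 8756 other named genes with a mean of at least 10 CPM. For Grik3 they were Rapgef6 (0.0847), Zfp423 (0.0993) and Rcor3 (0.102), where the median over all candidates was 0.363. For Grik1 they were Fam205a2 (0.252), Lin7a (0.273) and Ppp2r2c (0.275), where the median was 0.748. All 6 were called in the direction of their receptor gene, as a gene near to it in this measure must tend to be.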

How the data were processed

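The authors deposited whole-number read counts per Entrez gene for 7 libraries, with a gene length beside each row. Per the submitters' processing notes, featureCounts was used and the build named is mm9. The sources used here do not name the aligner, annotation or strand setting. Each column name was matched to 1 sample description. Symbols came from the RefSeq table of GRCm38.p6 (24176 of 26286 identifiers matched).

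Counts were filtered with filterByExpr (minimum count 10), scaled by TMM and tested in edgeR 4.0.16 (glmQLFTest) in R 4.3.3, two-sided, with genotype as the only term and Benjamini-Hochberg adjustment over all tested genes. The SE was derived from the log2 fold change and the F statistic. CPM and RPKM were computed from these counts. The design text gives separate mice, so p-values measure the spread between animals. Total counts were 8272487 to 8813060 per library.

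On simulated counts, edgeR called 72% of genes changed 1.25-fold, 90% at 1.5-fold and 100% at 2-fold and 4-fold (50 each, mean of at least 5 CPM, 13456 genes tested), and 5.24% of calls were unchanged genes. Grin2a, Grin2c, Grin2d, Grin3a and Grin3b lie below that abundance. Only 200 genes were changed in the simulation, whereas 28.9% of tested genes were called in the data. The adjusted p depends on the share of changed genes, so these rates do not carry over to the comparison of the genotypes.

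The test was repeated with other scaling (RLE, upper-quartile, library size only), without a filter or with one at 1 CPM in 3 libraries, with DESeq2 1.42.0, limma-voom (limma 3.58.1) and robust edgeR, and with the replicate number as a block, each library left out in turn, and a threshold of 0.01. Shares were repeated with TPM.

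The subunit genes and lists were chosen with earlier results of these data known. The text names Kat7, all Grin and Grik genes, the called members of the partner lists, the AMPA and delta subunits and, for the largest rise and fall among the subunit genes, the 3 most similar genes. The uncalled partners Lin7b, Lin7c, Srr, Fyn, Src and Ptpn5, the marker Stmn2 and genes named by position fall outside that rule. They were chosen after their values were seen. Values of some listed genes are not reported here.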

Additional observations from a re-analysis of the deposited data

Results flagged for a closer look

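In 2 of 30 receptor and partner genes checked, 1 of the 4 KAT7 mutant libraries stood far from the others by Dixon's criterion, which chance meets in about 1 in 20 groups. Grin1 was 50.5 CPM in mutant replicate 4, against 41.3 to 42.5 CPM in the other 3. Grik5 was 219 CPM in mutant replicate 3, against 237 to 239 CPM in the other 3. Neither gene was called with or without these libraries.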

How the results depend on the processing

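Over the 16 other fits, the called genes Grik1 (-1.65 to -1.11), Grik3 (0.57 to 0.76), Grin2b (-0.48 to -0.33), Neto1 (-1.53 to -1.28), Lin7a (-1.16 to -0.98) and Slc6a9 (1.00 to 1.26) kept their direction and call, as log2 fold changes. The number of receptor genes called higher was 1 to 2 with 1 library left out, Grik2 being the second. That called lower was 2 to 3 with 1 library left out, 2 by DESeq2, and 4 with no count filter or the CPM filter, where Grin2a is tested. With 1 library left out, 1273 to 1776 of all 13567 to 13848 tested genes were called higher and 1826 to 2212 lower. DESeq2 called 1425 and 1727 of 13681. With no count filter 1868 and 2395 of 20196 genes were called, and with the CPM filter 1771 and 2223 of 13939. Grin2a passed the CPM filter, and the count filter without wild type replicate 2, only through its wild type libraries. At an adjusted p under 0.01, 1034 genes were called higher in place of 1793, and 1532 lower in place of 2163. The sign turned for uncalled genes only: Grin1 was -0.012 with the replicate block and -0.013 to 0.10 with 1 library left out, and Grik4 was -0.17 to 0.12. Shares by TPM equal those by RPKM by construction, up to rounding.

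Replicate numbers were not taken as pairs: same-numbered libraries had correlations of 0.02, 0.01 and -0.03 in their deviations from the genotype means. With the replicate block 1 receptor gene was called higher and 3 lower, as without it, and 1460 and 1943 of all genes. Grin2a, Grin2c and Grin3a had at most 29 counts in any library, which limits the precision of their fold changes.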

Other observations

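Of the 20 nearest tested genes on either side of the 10 subunit genes in the RefSeq order, 5 were called, 2 higher and 3 lower, against 28.9% of all tested genes. The neighbours of Grik3 are Meaf6, which encodes a subunit of KAT7 complexes (-0.09), and Mrps15 (0.05), and neither was called. Those of Grin2b, Emp1 (-0.35) and Eif4a3l1 (0.17), were not called. Beside Grik1, which fell, Tiam1 rose by 0.24 (edgeR adjusted p = 0.00371) and Bach1 (0.10) was not called. These neighbours were chosen by position.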
